A study of Homo sapiens with 8 samples.

Results

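The FOS and JUN genes encode the core subunits of the transcription factor AP-1. All 7 members (FOS, FOSB, FOSL1, FOSL2, JUN, JUNB and JUND) were taken by their symbols from tables that list 56638 entries, and each symbol occurred once. Poly(A) RNA was sequenced from A375, a human malignant melanoma cell line with an activating BRAF change. The cells were seeded in 10% serum, received plasmid after 24 h and were collected 48 h after that. The plasmid, pcDNA3.1(-), encoded full-length SLNCR1, a long noncoding RNA (SLNCR1), or the conserved part of it by itself (conserved region), or all but that part (delta-conserved), or nothing (vector). Each of the 4 groups had 2 libraries. All of them came from 1 cell line that received the plasmid backbone, lipid reagent and serum. Whether libraries of 1 group came from separate cultures is not stated, so the p-values reflect only the spread between these samples, and that spread may be technical.

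AP-1 is a pair of proteins held together by leucine zippers. JUN proteins pair with each other or with a FOS protein, whereas FOS proteins need a JUN partner, and the pair binds a short DNA element in the promoters and enhancers of its target genes. Several members are immediate early genes, which growth factors and serum switch on through the ERK and JNK kinase pathways without new protein synthesis. In melanoma cells with active BRAF signalling, FOSL1 is known as an ERK-dependent member that is stabilised as a protein by the kinase. Without a transactivation domain of their own, FOSL1 and FOSL2 differ from FOS and FOSB, and FOSB also gives a shortened splice form that lacks one. Reads counted per gene do not separate the FOSB forms.

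FOSB differed most between groups among the 7 genes, and the promoters of FOSB and of its nearest relative, FOS, are shown because FOSB changed against vector, whereas FOS passed no test against vector with all libraries. RefSeq promoters (build GRCh38.p14, 250 bases before to 50 after the start site, written along the gene's strand) were matched for 6 of the 7 members, all but FOSL1. Capitals mark TGACG, the core of the cAMP response element, and the TATA box TATAAA, each searched on both strands.
FOSB (chr19:45467746-45468045, plus strand): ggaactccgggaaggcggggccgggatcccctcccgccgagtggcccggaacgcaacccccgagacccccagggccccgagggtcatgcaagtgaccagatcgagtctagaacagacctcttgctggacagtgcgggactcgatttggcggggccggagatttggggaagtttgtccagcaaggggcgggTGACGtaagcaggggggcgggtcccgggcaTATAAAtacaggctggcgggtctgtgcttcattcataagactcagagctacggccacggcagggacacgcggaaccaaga
FOS (chr14:75278578-75278877, plus strand): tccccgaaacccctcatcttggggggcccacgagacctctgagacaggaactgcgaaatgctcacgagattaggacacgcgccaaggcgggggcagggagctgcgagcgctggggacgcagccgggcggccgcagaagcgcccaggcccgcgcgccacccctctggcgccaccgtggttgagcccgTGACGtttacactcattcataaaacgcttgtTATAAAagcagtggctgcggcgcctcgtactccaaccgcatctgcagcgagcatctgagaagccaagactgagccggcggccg
Both windows hold 1 such core and 1 TATA box, at -60 and -30 in FOSB and at -64 and -33 in FOS. The GC content was 64.0% in FOSB and 64.7% in FOS, against a median of 58.7% over 35116 RefSeq promoters. The core was found in all 6 members and in 24.6% of all promoters. The TATA box was found in 3 members (FOS, FOSB and JUNB) and in 11.5% of all promoters. The full element TGACGTCA, which contains the core, was found in JUND alone (1.85% of all promoters), and the AP-1 site TGAGTCA in FOSL2 alone (4.95%). No member window matched the CArG box bound by serum response factor (1.29% of all promoters) or the EGR site GCGTGGGCG (0.795%). These matches describe letters in a window and not occupied sites. Sequence more than 250 bases before the start site was not searched, so a site there would be missed.

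The libraries held 8222868 to 12015394 reads assigned to genes. SLNCR1 libraries held 10097194 and 9090649, and delta-conserved libraries 9187241 and 8222868. Conserved-region libraries held 11339739 and 10280768, and vector libraries 12015394 and 11321294. Every SLNCR1 and delta-conserved library was thus shallower than every conserved-region and vector library, and the part of depth in the results was not tested. Whole reads of single libraries were solved from the authors' group means, and the deeper library of a group is called a and the other b. All 7 members passed the filter of a mean of at least 10 normalized counts, and their reads per library ranged from 132 to 3146. On the first principal component, with 41.3% of the variance, the SLNCR1 and delta-conserved libraries lay between 14.2 and 26.9. The conserved-region and vector libraries lay between -20.3 and -14.1 on it. On the second, with 15.9% of the variance, SLNCR1 library b lay at 24.0 and the other 7 libraries between -18.1 and 4.9. FOSB and the counts of called genes in the lists are therefore also given without SLNCR1 library b. The transfected RNA was read through LINC00511, since all 5 RefSeq transcripts of LINC00673, the gene with the synonym SLNCR1, match LINC00511 in GENCODE release 29. LINC00511 averaged 869 ± 15.3 normalized counts with SLNCR1, 1089 ± 62.4 with the conserved region, 1006 ± 200 with delta-conserved and 620 ± 4.62 in vector (SD, n = 2 each). Which part of the RNA its entry counts was not tested. Of 9 melanocytic markers 6 reached a mean of 10, among them SOX10, MITF, PMEL and MLANA, and their summed level ranged from 4416 to 4436 with SLNCR1, 4113 to 4292 with the conserved region, 4455 to 4539 with delta-conserved and 3869 to 4160 in vector. TYR, TYRP1 and DCT, the pigment enzymes, were the 3 that stayed below 10. Of 6 fibroblast markers 5 reached a mean of 10 (COL1A1, COL1A2, COL3A1, DCN and LUM), with sums of 241 to 246 with SLNCR1, 204 to 424 with the conserved region, 381 to 391 with delta-conserved and 253 to 282 in vector. Of 6 keratinocyte markers 3 did (KRT14, KRT10 and DSC3), with sums of 788 to 837 with SLNCR1, 740 to 817 with the conserved region, 802 to 859 with delta-conserved and 724 to 764 in vector. Endothelial and leukocyte sums were 34 to 82 over all libraries. The part of these markers in the results was not tested. Each library pools RNA of all cells in a dish, so fewer cells that express a gene and less RNA per cell cannot be told apart.

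FOSB was the one member that passed the authors' test, and it was lower with SLNCR1 and with delta-conserved. By the authors' adjusted p under 0.05, 1 of 7 members fell and none rose with SLNCR1, where 0.844% of 33548 genes were called lower and 0.0388% higher. With delta-conserved 1 of 7 fell and none rose, where 1.14% of 34744 genes were lower and 1.11% higher. With the conserved region 0 of 7 passed, where 0.0175% of 34347 genes were called higher and 0% lower. FOS alone had an unadjusted p under 0.05 in that deposited table, as had 1.34% of all genes. These shares, also used for the lists below, include genes with a mean under 10, whereas 16052 genes reached a mean of 10. Adjusted over genes with a mean of at least 10, the authors' p-values called 361 genes with SLNCR1 and 1108 with delta-conserved. Over all genes they called 296 and 784. Members called when adjusted over genes with a mean of at least 10 were 1 with SLNCR1 and 2 with delta-conserved.

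The recovered libraries were also tested with limma, a linear model across all genes, at an adjusted p under 0.05. With SLNCR1 it called 1 of 7 members lower and none higher, where 7.41% of 16052 genes were lower and 3.97% higher. With delta-conserved it called FOSB lower and FOSL1 higher, where 5.25% of genes were lower and 5.18% higher. With the conserved region 0 of 7 passed, where 0.00623% of genes were called higher and 0% lower, and 3 members (FOS, JUN and JUNB) and 5.45% of genes had an unadjusted p under 0.05. Libraries with SLNCR1 lay wholly above vector for 4 members and wholly below for 1, where 27.2% and 25.4% of tested genes did so. With the conserved region 5 members lay wholly above vector (25% of genes) and none below (16.7%), and with delta-conserved 2 lay above (27.7%) and 1 below (26%). The shares called by limma depend on single libraries, since 317 genes were called with SLNCR1 without vector library a and 4337 without SLNCR1 library a, and 282 were called with delta-conserved without vector library a and 2811 without SLNCR1 library a. The median log2 difference over the 7 members was 0.16 in SLNCR1 cells, 0.164 in conserved-region cells and -0.0079 in delta-conserved cells, against -0.000279, 0.0198 and -0.0025 over all tested genes. The 3 comparisons share the vector libraries, so they stand side by side and are not independent.

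**Figure D1:**
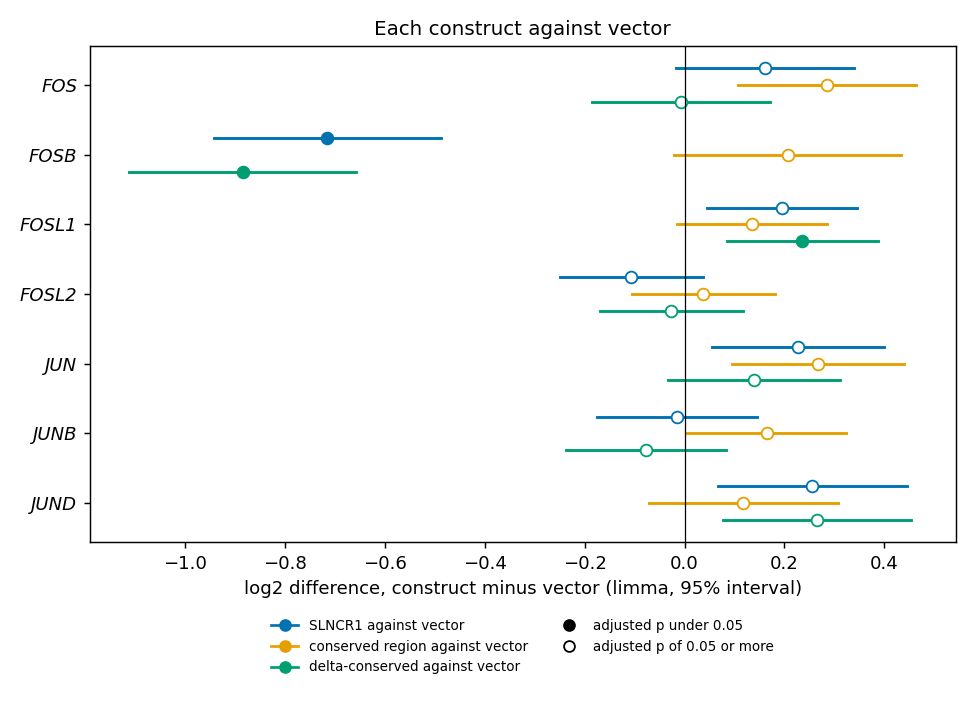
Limma log2 differences of each construct minus vector (horizontal axis) for the 7 genes, with 95% intervals from 2 libraries per group. Filled points have an adjusted p under 0.05, which holds for FOSB with SLNCR1 (-0.71) and delta-conserved (-0.88) and for FOSL1 with delta-conserved (0.24).

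FOSB fell with both constructs that contain SLNCR1 sequence outside the conserved region. It had 201 and 175 normalized counts in SLNCR1 cells (libraries a and b), 379.5 and 335 in conserved-region cells, 168 and 166 in delta-conserved cells, and 310.4 and 307 in vector cells. All 4 libraries with SLNCR1 or delta-conserved lay below all 4 libraries with the conserved region or vector, with no overlap. The first principal component parted the libraries in the same way. Group means were 188 ± 18.0 with SLNCR1, 357 ± 31.7 with the conserved region, 167 ± 1.71 with delta-conserved and 309 ± 2.39 in vector (SD, n = 2 each). In the authors' deposited table for delta-conserved, FOSB had a log2 fold change of -0.89 against vector (adjusted p = 2.34e-06). The authors' deposited table for SLNCR1 gave -0.71 (adjusted p = 0.00233), and that for the conserved region 0.19 (adjusted p = 1).

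By limma on the recovered libraries, FOSB differed from vector by a log2 of -0.71 ± 0.11 (SE) with SLNCR1 (adjusted p = 0.000401) and by -0.88 ± 0.11 with delta-conserved (adjusted p = 5.51e-05). With the conserved region the difference was 0.21 ± 0.11 (adjusted p = 0.828), and its 95% interval ran from -0.02 to 0.43. Without SLNCR1 library b, the one that stood apart, the SLNCR1 difference was -0.62 (adjusted p = 0.000914). Reads of FOSB are few, 132 to 429 per library, which sets the counting error of its values. On the opposite strand FOSB overlaps ERCC1, a DNA repair gene, in GENCODE release 29, and the libraries do not mark strand. ERCC1 had 1241 and 1314 normalized counts in SLNCR1 cells, 1265 and 1293 in conserved-region cells, 1253 and 1270 in delta-conserved cells, and 1163 and 1210 in vector cells. Its log2 differences from vector were 0.11, 0.11 and 0.09 for SLNCR1, the conserved region and delta-conserved, with limma adjusted p-values of 0.308, 0.828 and 0.457.

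**Figure D2:**
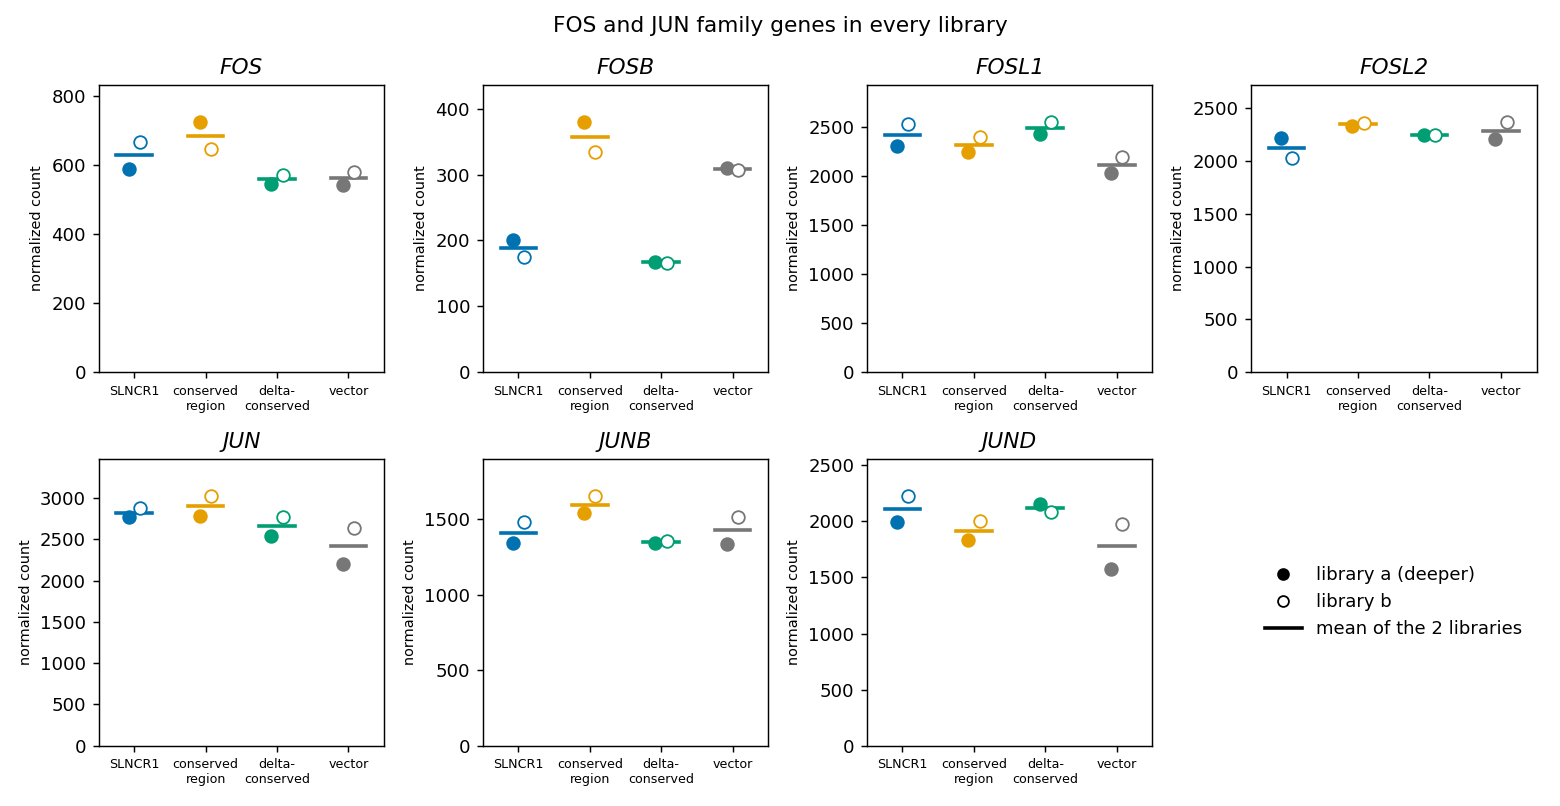
Normalized counts (vertical axes, from 0) of the 7 FOS and JUN family genes in every library, by group. Filled points are library a, open points library b and lines the mean of both; FOSB lies at 166 to 201 with SLNCR1 and delta-conserved and at 307 to 379.5 with the conserved region and in vector.

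FOS, the founding member, had no call against vector. It had 589.7 and 669 normalized counts in SLNCR1 cells, 724.5 and 647 in conserved-region cells, 547 and 571 in delta-conserved cells, and 544 and 580.5 in vector cells. The SLNCR1 and conserved-region libraries lay above both vector libraries, and those with delta-conserved overlapped them. In the authors' deposited table for the conserved region, FOS had a log2 of 0.27 with an unadjusted p of 0.00452 and an adjusted p of 1. The limma difference there was 0.29 ± 0.08 (SE, adjusted p = 0.828). For SLNCR1 the limma difference was 0.16 ± 0.08 (adjusted p = 0.225), and for delta-conserved -0.01 ± 0.08 (adjusted p = 0.973).

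Within a library the ratio of FOSB to FOS does not depend on scaling. FOSB reads per FOS read were 0.341 and 0.262 in SLNCR1 cells, 0.524 and 0.517 in conserved-region cells, 0.307 and 0.29 in delta-conserved cells, and 0.571 and 0.529 in vector cells. The SLNCR1 and delta-conserved ratios thus lay below the other 4 without overlap. Of all reads on the 4 FOS family genes, FOSB took 3.77% and 3.24% in SLNCR1 cells, 6.68% and 5.82% in conserved-region cells, 3.11% and 2.99% in delta-conserved cells, and 6.08% and 5.63% in vector cells. The exact Clopper-Pearson 95% intervals of the 4 SLNCR1 and delta-conserved shares spanned 2.51% to 4.32%, and those of the other 4 shares 5.07% to 7.32%. These intervals cover counting error only.

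**Figure D3:**
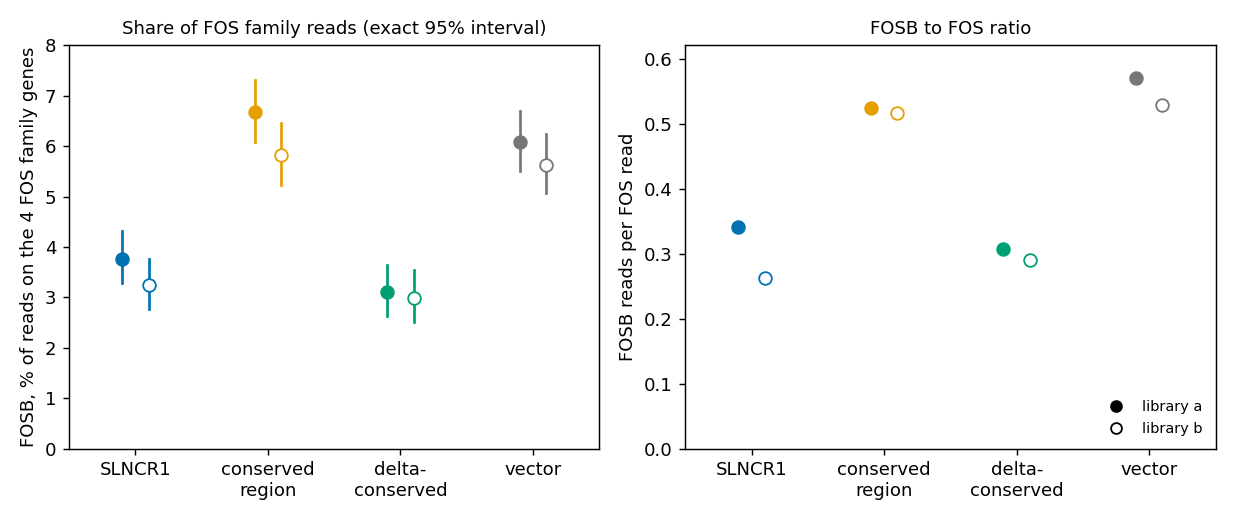
Left, FOSB as a percentage of reads on FOS, FOSB, FOSL1 and FOSL2 in each library, with exact 95% binomial intervals; right, FOSB reads per FOS read. Filled points are library a and open points library b; shares are 2.99% to 3.77% with SLNCR1 and delta-conserved, and 5.63% to 6.68% with the conserved region and in vector.

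FOSL1, which encodes FRA1, was higher with delta-conserved by limma. It had 2314 and 2536 normalized counts in SLNCR1 cells, 2246 and 2404 in conserved-region cells, 2433 and 2552 in delta-conserved cells, and 2037 and 2198 in vector cells. All 6 libraries with a construct lay above both vector libraries. Delta-conserved differed from vector by a limma log2 of 0.24 ± 0.07 (SE, adjusted p = 0.0427). In the authors' deposited table that comparison gave 0.23 with an adjusted p of 0.0709. The limma call was lost without any 1 of 5 libraries (conserved-region a or b, delta-conserved a or b, or vector a), where adjusted p-values were 0.0746 to 0.317, and under trimmed-mean scaling (0.109), library totals (0.0719) or no filter on low genes (0.124). SLNCR1 differed by 0.20 ± 0.07 (adjusted p = 0.0823) and the conserved region by 0.14 ± 0.07 (adjusted p = 0.828).

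FOSL2, which encodes FRA2, was not called against vector. It had 2222 and 2033 normalized counts in SLNCR1 cells, 2334 and 2364 in conserved-region cells, 2245 and 2249 in delta-conserved cells, and 2213 and 2367 in vector cells. All 3 constructs overlapped vector, and the limma log2 differences were -0.11 in SLNCR1 cells, 0.04 in conserved-region cells and -0.03 in delta-conserved cells (SE 0.07 each, adjusted p-values of 0.325, 0.939 and 0.869). In GENCODE release 29 an antisense gene, FLJ31356, lies across an exon of FOSL2, and its reads were not analysed here.

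None of the 3 JUN family genes passed against vector by the authors' adjusted p or by limma with all libraries. JUN, whose protein pairs with every FOS protein, had 2766 and 2875 normalized counts in SLNCR1 cells, 2783 and 3022 in conserved-region cells, 2541 and 2769 in delta-conserved cells, and 2202 and 2634 in vector cells. The vector libraries differed by more than those of any construct, and delta-conserved overlapped vector while SLNCR1 and the conserved region did not. Limma log2 differences of JUN were 0.23 ± 0.08 (SE) with SLNCR1 (adjusted p = 0.0782), 0.27 ± 0.08 with the conserved region (adjusted p = 0.828) and 0.14 ± 0.08 with delta-conserved (adjusted p = 0.33).

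JUNB, which can act against JUN at some promoters, had 1342 and 1479.8 normalized counts in SLNCR1 cells, 1540.1 and 1653 in conserved-region cells, 1341 and 1358 in delta-conserved cells, and 1336 and 1517 in vector cells. Only the conserved region lay outside the vector libraries, with a limma log2 of 0.16 ± 0.08 (SE, adjusted p = 0.828). SLNCR1 and delta-conserved gave -0.01 ± 0.08 and -0.08 ± 0.08 (adjusted p-values of 0.926 and 0.601). HOOK2, which overlaps JUNB on the opposite strand in GENCODE release 29, had 314 to 491 normalized counts over all libraries, and no limma call against vector (adjusted p-values of 0.801, 0.882 and 0.19 for SLNCR1, the conserved region and delta-conserved).

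JUND, the member known for steady expression in resting cells, had 1997 and 2224 normalized counts in SLNCR1 cells, 1829 and 2005 in conserved-region cells, 2157 and 2087 in delta-conserved cells, and 1579 and 1972 in vector cells. SLNCR1 and delta-conserved lay above both vector libraries, and the conserved region overlapped them. Limma log2 differences were 0.26 ± 0.09 (SE) with SLNCR1 (adjusted p = 0.0709), 0.12 ± 0.09 with the conserved region (adjusted p = 0.84) and 0.27 ± 0.09 with delta-conserved (adjusted p = 0.0679). Without vector library b, whose JUN and JUND values exceed those of vector library a, JUND passed with SLNCR1 (log2 0.42) and with delta-conserved (0.43). JUN passed there with SLNCR1 (0.36). Over all fits with 1 library left out, these differences fell as low as 0.10, 0.11 and 0.10. JUN with delta-conserved fell as low as 0.01. JUND also passed with delta-conserved when either SLNCR1 library was left out (adjusted p-values of 0.00968 and 0.00947), and with all libraries of delta-conserved and vector fitted alone (0.26, adjusted p = 0.00872), so in 4 of 15 alternatives. Without SLNCR1 library a, FOS, FOSL1, JUN and JUND passed as higher with SLNCR1. That fit rests on library b alone, the SLNCR1 library that stood apart. More of all tested genes were also called in it than with all libraries. The SLNCR1 difference reached at most 0.25 for FOS and 0.26 for FOSL1 in any fit with 1 library left out.

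Direct comparisons of the constructs asked whether the conserved region and the rest of SLNCR1 differed in their AP-1 gene levels. FOSB was lower with SLNCR1 than with the conserved region, by a limma log2 of -0.92 ± 0.11 (SE, adjusted p = 2.02e-05), where 9.48% of tested genes were called lower and 2.06% higher. Without SLNCR1 library b that difference was -0.82 (adjusted p = 9.14e-06). FOSB was higher with the conserved region than with delta-conserved, by 1.09 ± 0.11 (adjusted p = 3.11e-06), where 5.79% of tested genes were called higher and 1.12% lower. Between SLNCR1 and delta-conserved FOSB differed by 0.17 ± 0.11 (adjusted p = 0.731), with a 95% interval from -0.06 to 0.40. In that last comparison 0 of 7 members and 0 of 16052 genes (0%) passed by limma in either direction, while 0 members and 1282 genes (7.99%) had an unadjusted p under 0.05, and limma with voom weights called 1 gene. Without SLNCR1 library a, limma called 1226 genes and still 0 members there.

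Libraries with SLNCR1 lay wholly below those with the conserved region for 3 members (27.9% of tested genes) and above for none (29.3%). Libraries with the conserved region lay above those with delta-conserved for 5 members (28.5%) and below for 2 (28.9%), so no member overlapped. Libraries with SLNCR1 lay above those with delta-conserved for 2 members (16.3%) and below for 1 (16.9%).

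FOS was the other member called between constructs. It was higher with the conserved region than with delta-conserved, by 0.29 ± 0.08 (SE, limma adjusted p = 0.0438). That call was lost without either library of the conserved region, of delta-conserved or of vector, with adjusted p-values of 0.0512 to 0.476, and with no filter on low genes (adjusted p = 0.158). JUNB differed in the same comparison by 0.24 ± 0.08 (adjusted p = 0.0666), and passed in 7 of 15 alternatives. These were each library of vector or SLNCR1 left out (adjusted p-values of 0.00995 to 0.0481), trimmed-mean scaling (0.27, adjusted p = 0.0372), library totals (0.26, adjusted p = 0.028) and a fit of those 2 groups alone (0.24, adjusted p = 0.000146). JUND was lower there in the fit of those 2 groups alone (-0.145, adjusted p = 0.0389), and in no other alternative did it pass. Between SLNCR1 and the conserved region, JUNB differed by -0.18 ± 0.08 (adjusted p = 0.138) and FOSL2 by -0.14 ± 0.07 (adjusted p = 0.18). JUNB passed there without SLNCR1 library b (adjusted p = 0.0485), and FOSL2 without SLNCR1 library a (adjusted p = 0.0415).

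**Figure D4:**
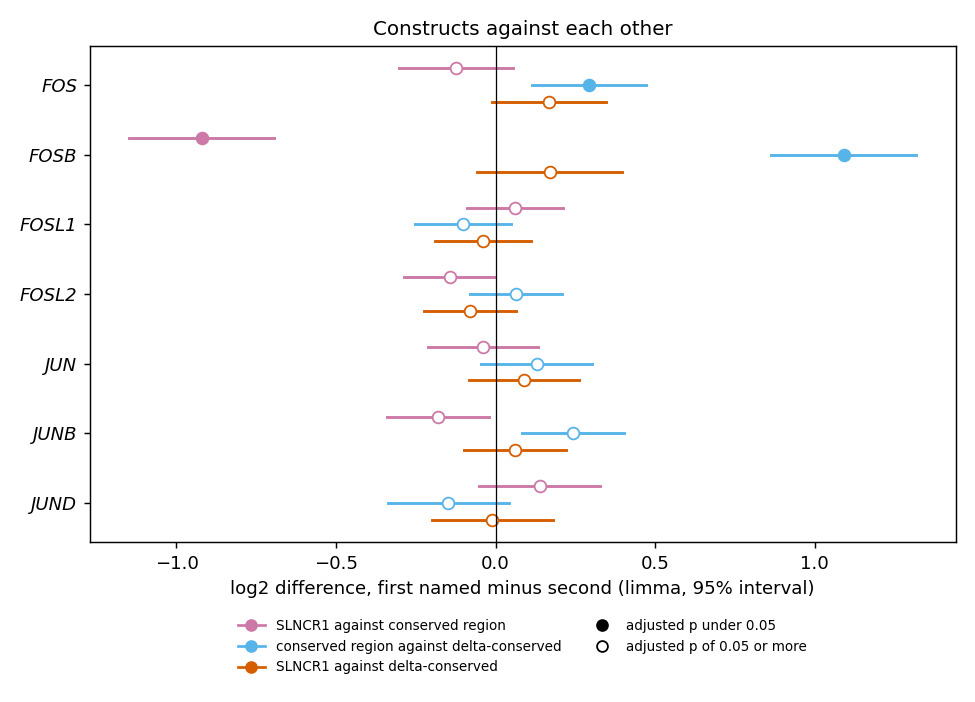
Limma log2 differences between constructs (horizontal axis, first named minus second) for the 7 genes, with 95% intervals. Filled points have an adjusted p under 0.05, which holds for FOSB in both comparisons with the conserved region (-0.92 and 1.09) and for FOS between the conserved region and delta-conserved (0.29).

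The order of group means differed between members. FOSB stood lowest with delta-conserved, followed by SLNCR1, vector and the conserved region. No neighbours in that order overlapped, but SLNCR1 against vector was the one neighbouring step that passed by limma (adjusted p = 0.000401), against 0.731 for SLNCR1 over delta-conserved and 0.828 for the conserved region over vector. JUNB had the same order of means, with overlap at all steps but the last. FOS stood lowest with delta-conserved, then vector, SLNCR1 and the conserved region. For FOSL1 and JUND the order was vector, conserved region, SLNCR1 and delta-conserved, and for JUN vector, delta-conserved, SLNCR1 and conserved region. FOSL2 alone was lowest with SLNCR1. No neighbouring step of the other 6 genes passed by limma (adjusted p-values of 0.225 to 0.987).

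Per kilobase of exon, in GENCODE release 29 lengths, FOSL1 was the most abundant member and FOSB the least abundant in every group. FOSL1 averaged 1318 ± 85.6 normalized counts per kilobase with SLNCR1, 1264 ± 60.7 with the conserved region, 1355 ± 45.7 with delta-conserved and 1151 ± 61.8 in vector (SD, n = 2 each). JUND followed at 953 to 1139, then JUN and JUNB at 683 to 877, FOSL2 at 313 to 346 and FOS at 190 to 233. FOSB averaged 33.9 ± 3.25 with SLNCR1, 64.3 ± 5.71 with the conserved region, 30.0 ± 0.308 with delta-conserved and 55.6 ± 0.431 in vector. As a share of the family's level per kilobase, FOSB was 0.74%, 1.39%, 0.661% and 1.34% in SLNCR1, conserved region, delta-conserved and vector cells, whereas FOSL1 was 28.8%, 27.3%, 29.9% and 27.7%. The family as a whole took 0.106% to 0.122% of all reads in every library. The lengths may differ from those of the authors' annotation, whose release the sources used here do not state.

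Members did not vary together as 1 block over the 8 libraries. The highest Pearson correlation of log2 levels between members was 0.905, for FOSL1 with JUND, and the lowest was -0.699, for FOSB with FOSL1. These describe 8 points that share 4 groups and their depth. Outside the family, the genes most like FOSB among 12425 genes with a mean of at least 50 were TRIM26 (r = 0.993), CYTH3 (0.991) and THUMPD2 (0.989). THUMPD2 averaged 268 normalized counts with SLNCR1, 623 with the conserved region, 252 with delta-conserved and 564 in vector. The genes most like JUN were ICAM1 (r = 0.971), DUSP1 (0.965) and CYR61 (0.957), and those most like JUNB were ODC1 (0.983), SRRT (0.975) and NFKBIA (0.971). FOSL1 was most like H3F3B (0.996), SLC39A1 (0.995) and HMGB2 (0.994), and JUND most like SERINC2 (0.986), AGRN (0.984) and PUF60 (0.983). FOSL2 was most like EPHB1 (0.977), CREBZF (0.967) and MYO10 (0.965), and FOS most like IMMP1L (0.922), PRIMPOL (0.916) and ING1 (0.909).

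Several other immediate early genes fell with SLNCR1 and delta-conserved. Of 31 listed genes 4 fell, none rose and 27 did not pass with SLNCR1 by the authors' adjusted p, while 6 fell, 2 rose and 23 did not pass with delta-conserved, and none passed with the conserved region. Over all genes 0.844% were called lower and 0.0388% higher with SLNCR1, and 1.14% lower and 1.11% higher with delta-conserved. Genes with a mean under 10 are included in these shares. Limma called 8 of the 31 lower and 4 higher with SLNCR1 (7.41% and 3.97% of tested genes), and 9 lower and 4 higher with delta-conserved (5.25% and 5.18%). With SLNCR1 the 4 higher became 0 without SLNCR1 library b or vector library a and 2 without either delta-conserved library, and the 8 lower became 5 without vector library b. With delta-conserved fewer of the 4 higher were called without either library of delta-conserved or of the conserved region, or without vector library a. Fewer of the 9 lower were called without either library of delta-conserved or of vector. EGR1, EGR2, KLF4, KLF10 and ATF3 were among the 8 called lower with SLNCR1 without SLNCR1 library b. The growth factor-induced zinc finger gene EGR2 averaged 31.9 ± 1.34 normalized counts with SLNCR1, 247 ± 14.2 with the conserved region, 35.4 ± 3.16 with delta-conserved and 201 ± 5.42 in vector. EGR1, KLF4 and KLF10 completed the 4. KLF4, a Kruppel-like factor, averaged 411 ± 10.9 with SLNCR1, 664 ± 9.19 with the conserved region, 414 ± 20.4 with delta-conserved and 661 ± 55.8 in vector (SD, n = 2 each). With delta-conserved these 4 were joined by ATF3 and BTG2 among the genes that fell, and PHLDA1 and ID1 rose, of which BTG2 and ID1 were named after their values were seen. The median log2 of the list in the authors' deposited tables was 0.018 in SLNCR1 cells, 0.074 in conserved-region cells and -0.004 in delta-conserved cells, against 0.003, 0.003 and -0.006 over all genes with a mean of at least 10. The list shares ATF3 with the dimer partners, and DUSP1 and SRF with the upstream regulators.

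Among genes reported as AP-1 targets, those called with all libraries were higher. Of 40 listed genes 3 rose with SLNCR1 and 37 did not pass, 11 rose with delta-conserved and 29 did not pass, and none passed with the conserved region. Over all genes, those with a mean under 10 included, 0.0388% were called higher with SLNCR1 and 1.11% with delta-conserved. Limma called 13 of 38 higher with SLNCR1 and 16 with delta-conserved, where 3.97% and 5.18% of tested genes were called higher. With SLNCR1 the 13 became 3 (IL6, IL8 and IL11) without SLNCR1 library b or vector library a, and 8 without conserved-region library b. With delta-conserved the 16 became 9 without delta-conserved library a, 3 without delta-conserved library b and 2 (IL6 and IL8) without vector library a. Limma called none lower with all libraries, but 3 lower with SLNCR1 without SLNCR1 library a, and 2 lower with delta-conserved without either SLNCR1 library. With the conserved region limma called none with all libraries, and IL6 and IL8 higher when either SLNCR1 library was left out. The cytokine genes IL6, IL8 and IL11 rose with both. IL8, a neutrophil chemokine, averaged 1232 ± 102 normalized counts with SLNCR1, 886 ± 6.19 with the conserved region, 1132 ± 84.5 with delta-conserved and 692 ± 6.03 in vector (SD, n = 2 each). IL6 averaged 242 ± 24.7 with SLNCR1, 188 ± 0.523 with the conserved region, 215 ± 25.9 with delta-conserved and 121 ± 5.17 in vector. With delta-conserved CD44, an adhesion receptor, VIM, an intermediate filament gene, and ENO2, an enolase, also rose, with log2 values of 0.32, 0.34 and 0.33 and adjusted p-values of 0.000568, 0.00495 and 0.00699 in the authors' deposited table. The other 5 were MMP14, CCND1, FN1, MT2A and NQO1, named after their values were seen. The list's median log2 over the 38 genes with a mean of at least 10 was 0.188, 0.052 and 0.219 for SLNCR1, the conserved region and delta-conserved, against 0.003, 0.003 and -0.006 over all such genes. Melanocytic and keratinocyte marker sums, given above, were also higher with SLNCR1 and delta-conserved than in vector, and fibroblast sums higher with delta-conserved, and their part in these values was not tested.

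By the authors' adjusted p, ATF3 passed among dimer partners and FBXW7 and DUSP4 among upstream regulators. Of 21 dimer partners with a p-value, ATF3, a stress-induced member of the ATF family, fell with delta-conserved, and none passed with SLNCR1 or the conserved region, where 1.14%, 0.844% and 0% of all genes were called lower with delta-conserved, SLNCR1 and the conserved region. ATF3 averaged 994 ± 28.6 normalized counts with SLNCR1, 1498 ± 28.4 with the conserved region, 992 ± 72.1 with delta-conserved and 1265 ± 46.0 in vector (SD, n = 2 each). The SLNCR1 libraries gave ATF3 a log2 of -0.35 in the authors' deposited table (adjusted p = 0.125), and limma called it lower there (adjusted p = 0.0049; 0.00167 without SLNCR1 library b). By limma 3 of 21 partners were lower with SLNCR1 (7.41% of tested genes), which were ATF3, BATF2 and CREB1, and 1 was without vector library a. With delta-conserved ATF3 and BATF2 were lower (5.25%) and ATF4 higher (5.18%), with 1 to 3 lower and 0 to 3 higher when 1 library was left out. BATF2, CREB1 and ATF4 were named after their values were seen. Of 31 upstream regulators FBXW7, which marks JUN protein for degradation, fell with SLNCR1 and delta-conserved, and by limma was lower with SLNCR1 without SLNCR1 library b as well (-0.40, adjusted p = 0.00614). FBXW7 averaged 385 ± 46.6 with SLNCR1, 552 ± 5.24 with the conserved region, 405 ± 35.4 with delta-conserved and 551 ± 8.52 in vector. DUSP4, an ERK and JNK phosphatase, rose with delta-conserved, at 4847 ± 43.3 with SLNCR1, 4385 ± 132 with the conserved region, 5232 ± 166 with delta-conserved and 4116 ± 239 in vector. With the conserved region no gene of either list passed. By limma 1 of 30 regulators (DUSP4) was higher and 1 (FBXW7) lower with SLNCR1 (3.97% and 7.41% of tested genes). With delta-conserved 1 (DUSP4) was higher and 3 were lower (5.18% and 5.25%). With SLNCR1 the DUSP4 call was lost without SLNCR1 library b (log2 0.22) or vector library a. It was also lost without either library of the conserved region or of delta-conserved. With delta-conserved the 3 lower did not all stay called without any 1 library of vector, delta-conserved or the conserved region.

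**Figure D5:**
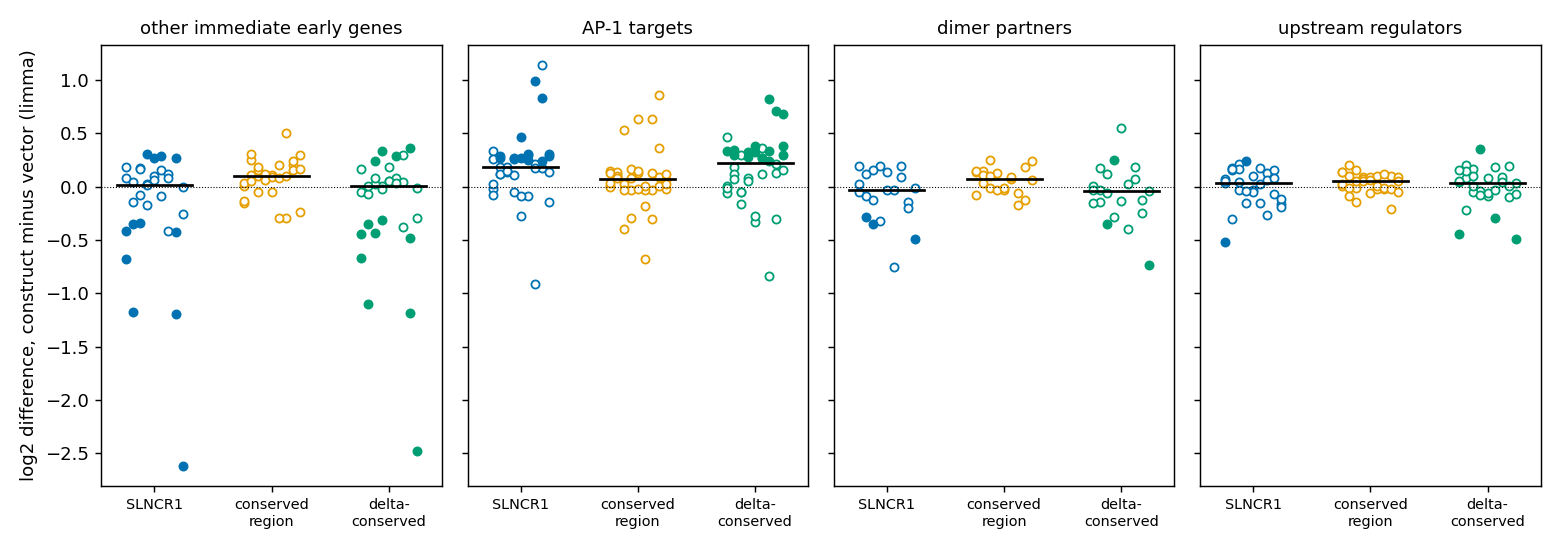
Limma log2 differences of each construct minus vector (vertical axis) for the genes of 4 lists whose mean reached 10. Each point is a gene, filled where the adjusted p is under 0.05, and black lines are medians; with all libraries, called AP-1 targets lie above 0 with SLNCR1 and delta-conserved, and no gene of the 4 lists is called with the conserved region.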

How the data were processed

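The deposited data were 3 tables, each comparing 1 construct with vector. The submitters' processing notes name DESeq, featureCounts, STAR and build hg19, without versions. Per the file headers, a table gives as signal the authors' group mean of scaled reads. The fold in each deposited table is construct over vector, and log2 was taken of it. P-values, raw and adjusted, were deposited by the authors. Poly(A) RNA was prepared with a kit that does not mark strand, per the labels' protocols.

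Because a mean over 2 libraries adds up whole multiples of 1 step per library, the reads of each library were solved. The solution was unique for 100% of entries with reads in 3 groups and for 99.981% with the conserved region, where 6 entries were left out. Which library is which labelled replicate is not known. Reads were scaled by median-of-ratios size factors and tested with limma 3.58.1 in R 4.3.3 (trend, 4 groups, 4 residual degrees of freedom, prior 13.6) on log2(normalized count + 1), which understates changes of low genes, for the 16052 genes whose mean reached 10. Adjustment was Benjamini-Hochberg over all of them. The 4 groups shared 1 estimate of spread. The chi-square per degree of freedom of the 2 libraries was 4.24 with SLNCR1, 2.62 in vector, 1.51 with delta-conserved and 1.18 with the conserved region. The limma p-values may thus be too low for SLNCR1 against vector and too high for the conserved region against delta-conserved. They may also be too high for the conserved region against vector. Limma called 1 gene there with all groups and 30 with only those 2 groups, and 0 members in both. Both steps were run on simulated data. The simulation for limma gave all libraries 1 common spread, so it cannot show how calls fare where groups differ in spread. Python 3.11.15, pandas 2.3.3, numpy 2.4.6, scipy 1.17.1 and matplotlib 3.10.9 were used.

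Alternatives were a pseudocount of 5, other filters and scalings, voom weights, fits of 2 groups, each library left out in turn and other thresholds on the authors' p. The plan for count files was not used, since the tables hold group means. Calls are by the authors' adjusted p under 0.05 unless limma is named. The members, lists and tests were chosen with earlier results of these data known. All 7 members are named, of each list up to 6 genes past the authors' threshold in any table, and for each member the 3 genes with the highest correlation. Overlapping genes were named by annotation.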

Additional observations from a re-analysis of the deposited data

How the results depend on the processing

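FOSB kept its direction and stayed past the threshold in all 15 limma alternatives of each of 4 comparisons (SLNCR1 and delta-conserved, each against vector and against the conserved region). Its log2 ran from -0.81 to -0.62 for SLNCR1 against vector, -0.94 to -0.87 for delta-conserved against vector, -1.02 to -0.82 for SLNCR1 against the conserved region and up to 1.18 for the conserved region against delta-conserved, where it stayed above 1. No called value of the 7 genes changed sign over 630 refitted values.

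Counts of called members moved more. For delta-conserved against vector the authors' p-values called 1 member, against 2 at an adjusted p under 0.1, 2 when adjusted over genes with a mean of at least 10 (FOSL1 at 0.033) and 2 by limma. The limma count of 2 became 1 with no filter, 1 under trimmed-mean scaling and 1 under library totals. Leaving out 1 library gave 1 to 3 there, 1 to 5 for SLNCR1 against vector, 1 to 2 for SLNCR1 against the conserved region, and 1 to 3 where the conserved region was set against delta-conserved. For the conserved region against delta-conserved the count of 2 became 1 with no filter and 4 with only those 2 groups. In these refits a lone library is assumed to vary like the other groups, and the cause of each change was not tested.

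Limma called 1826 genes for SLNCR1 against vector where the authors' test called 296, 1674 against 784 for delta-conserved, and 1 against 6 for the conserved region. With no filter limma called 491, 653 and 0 genes in these comparisons, and with 1 library left out 317 to 4337 for SLNCR1, 282 to 2811 for delta-conserved and 0 to 16 for the conserved region. For SLNCR1 the 1826 became 317 without vector a, 761 without SLNCR1 b, 1101 and 1150 without conserved-region a and b, and 4337 without SLNCR1 a. For delta-conserved the 1674 became 282 without vector a, 325 and 741 without delta-conserved b and a, and 2811 and 2805 without SLNCR1 a and b. Fits of 2 groups called 832 genes for SLNCR1, 2366 for delta-conserved and 30 for the conserved region. Between constructs, leaving out 1 library gave 426 to 2252 for the conserved region over delta-conserved (1109 with all), 707 to 4018 for SLNCR1 over the conserved region (1852) and 0 to 1226 for SLNCR1 over delta-conserved (0). Counts for the gene lists with a library left out were added after the data were seen. No scaling moved the median log2 of all genes by more than 0.06. No paired analysis was possible because the solved libraries carry no replicate number. With 132 to 429 FOSB reads per library and 2 libraries per group, small differences were not detectable.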
